A study of Apera spica-venti with 7 samples.

Results

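The transcripts described here are those of silky bent grass, Apera spica-venti, whose best homologue was named as part of the machinery that marks proteins with ubiquitin or degrades them. They were chosen by words in the homologue's description, namely F-box, E3 ubiquitin, RING finger, RING-H2, U-box, ubiquitin-conjugating, ubiquitin carboxyl-terminal hydrolase, proteasome and cullin, among best matches with an e-value of at most 0.1. Over the 7 assemblies of single conditions 1770 of 251792 annotated transcripts were members, and in the assembly of all reads together 439 of 66641 were. A member could hold more than 1 of the 9 words, and 7 transcripts did, all named with both RING finger and U-box.

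Germinated seeds at BBCH 05 (young root emerging), 07 (coleoptile leaving the grain), 08 (coleoptile growing) and 09 (coleoptile at the surface) were compared with leaf, root and stem of plants at BBCH 34 to 36, when the stem lengthens. All plants came from a mixture of herbicide-susceptible populations. Seeds were kept at 10°C for 10 h of night and 17°C for 14 h of day, and organs came from the greenhouse. Germinated seeds were kept cold in a stabilizing reagent (RNAlater), while organs were frozen in liquid nitrogen. This handling cannot be told apart from the comparison of seeds with organs. The study accepted a lower RNA quality than recommended, because good RNA was hard to extract from germinated seeds. Extractions took 0.7 g of seed material or 0.5 g of organ tissue, and the RNA of several individuals was then pooled. The samples analysed here hold 1 library per condition and no replicates. Further leaf and root libraries, which the study's methods mention, were not analysed here. The 4 seed stages and 3 organs below are different conditions, not replicates of a seed or an organ state. Coverage of transcripts was evened out by normalization before assembly, and like contigs were merged. The numbers below therefore count different assembled transcripts and do not measure how strongly a gene was expressed. The libraries still differed in the reads left after normalization, with the most in root and the fewest in leaf.

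In plants ubiquitin is activated by an E1 enzyme, passed to a ubiquitin-conjugating enzyme (E2) and set on the target protein with the help of an E3 ligase, which picks the target. RING, RING-H2 and U-box ligases bring the E2 to the target, HECT ligases carry ubiquitin themselves, and cullins are the scaffolds of ligases in which F-box proteins, joined through SKP1, are the part that binds the target. Deubiquitinating enzymes such as ubiquitin carboxyl-terminal hydrolases take ubiquitin off again, and the 26S proteasome, a 20S core with 19S caps, degrades marked proteins. In germinating seeds this pathway is known for removing repressors of hormone responses.

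The single assemblies held between 28412 annotated transcripts in leaf and 40902 at BBCH 09. In each of them 73.2% to 75.6% of annotated transcripts had a homologue with no informative name, so members can be found only among the remainder. Labels were checked with marker words. Leaf markers took 0.183% of leaf transcripts against 0.0831% to 0.106% elsewhere, and seed markers took 0.0611% to 0.107% in seeds against 0.0205% to 0.0541% in organs. The stem markers did not single out stem (0.120%, below 0.160% in root and 0.162% in leaf). The root markers singled out root only narrowly (0.0464% in root against 0.0422% in leaf). Single words did not all go the same way. Nitrate transporter had 11 transcripts in root and 2 to 4 elsewhere, but phosphate transporter had 3 in root and 3 to 9 elsewhere. The seed word late embryogenesis abundant had 2, 1, 2 and 1 in the seeds and 3, 3 and 0 in leaf, root and stem. No transcript in any assembly was described with the root word casparian.

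Members made up a similar small part of every assembly. They numbered 274 at BBCH 05, 299 at BBCH 07, 285 at BBCH 08 and 278 at BBCH 09, and 194 in leaf, 240 in root and 200 in stem. As a share of annotated transcripts this was 0.755%, 0.749%, 0.746% and 0.680% in the seeds, and 0.683%, 0.618% and 0.684% in leaf, root and stem. The 3 younger seed stages lay above all organs, but BBCH 09 fell within the range of the organs, so seeds and organs overlapped. Counted as distinct homologous proteins rather than transcripts, the seed shares (0.699% to 0.763% of all distinct proteins) lay above those of the organs (0.609% to 0.671%). Among peptides of at least 200 amino acids, by contrast, the organs had the higher mean (0.7497% against 0.7375%).

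None of the 9 word groups separated the seed stages from the organs. The exact permutation test over the 35 ways to split the 7 assemblies, two-sided, gave raw p-values from 0.0857 for F-box to 0.857 for U-box. After Benjamini-Hochberg adjustment over all 1505 descriptions and the groups, these values were 0.452 or higher. The smallest p that this test can give is 0.0286. For each group, the 95% Wilson intervals overlapped in all 21 pairs of assemblies, and these intervals cover counting error only.

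**Figure D1:**
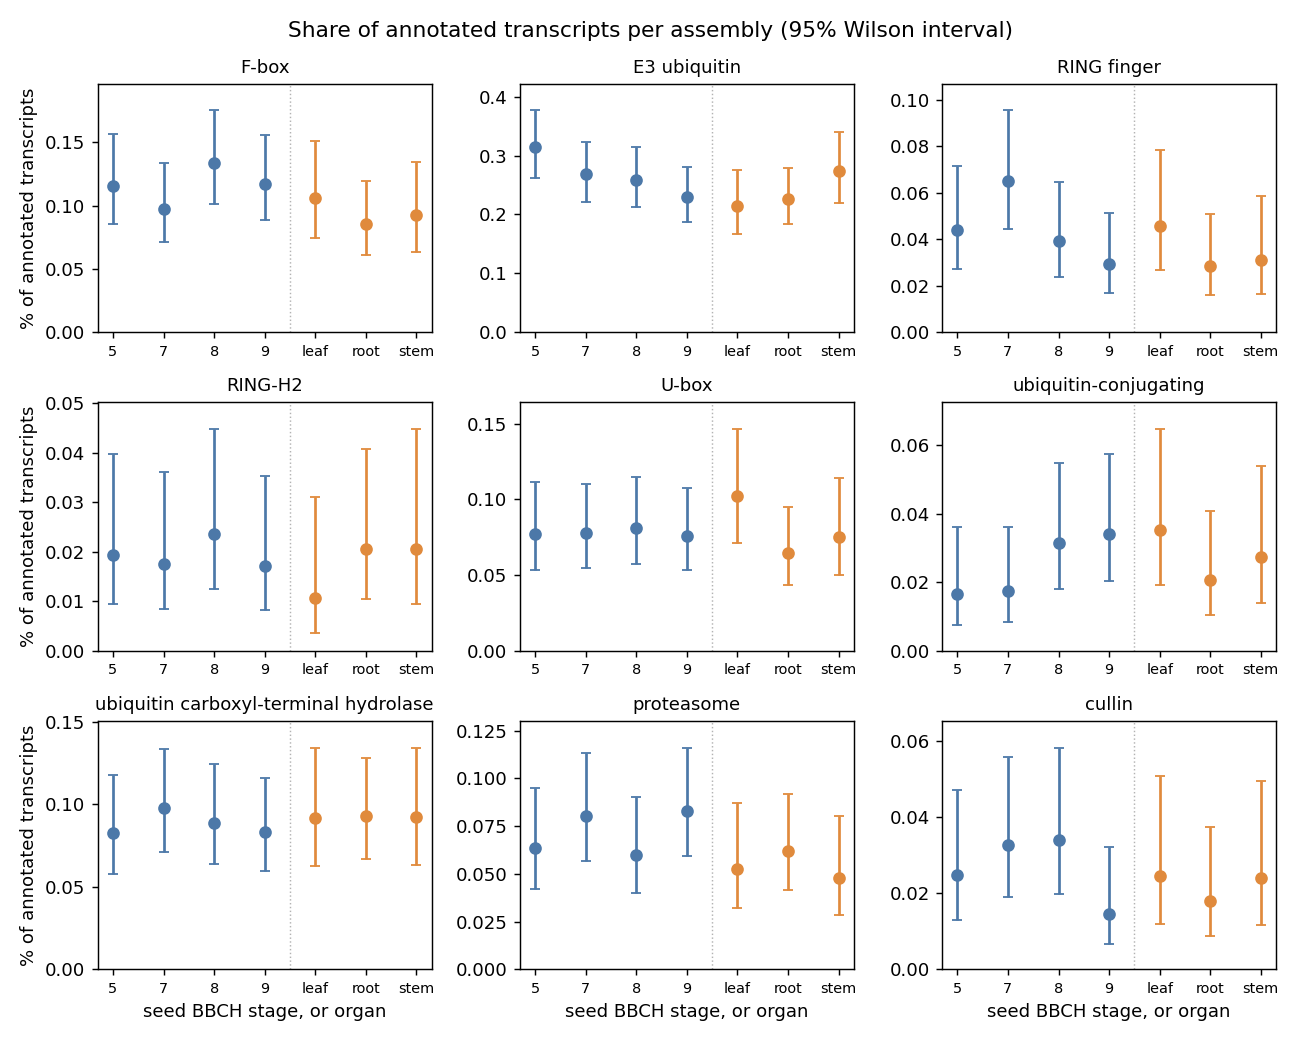
Each panel plots 1 word group as its share of annotated transcripts (%, y axis) in the seed assemblies at BBCH 5, 7, 8 and 9 (blue) and in leaf, root and stem (orange), with 95% Wilson intervals of counting error. In every panel the intervals of all assemblies overlap, and the E3 ubiquitin group ran from 0.215% in leaf to 0.314% at BBCH 05.

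The names of the members were also compared 1 by 1. Of the 179 descriptions found in the single assemblies, 62 occurred in all 7 and 38 in only 1. The 52 descriptions with at least 10 transcripts were set against all 1505 descriptions of that size. A single member description was higher in every seed stage than in every organ (1.92% of 52), where 7.31% of all descriptions were. A single one was higher in every organ (1.92%), where 5.58% of all were. The lowest adjusted p-value of any description, member or not, was 0.397 in the exact permutation test.

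**Figure D2:**
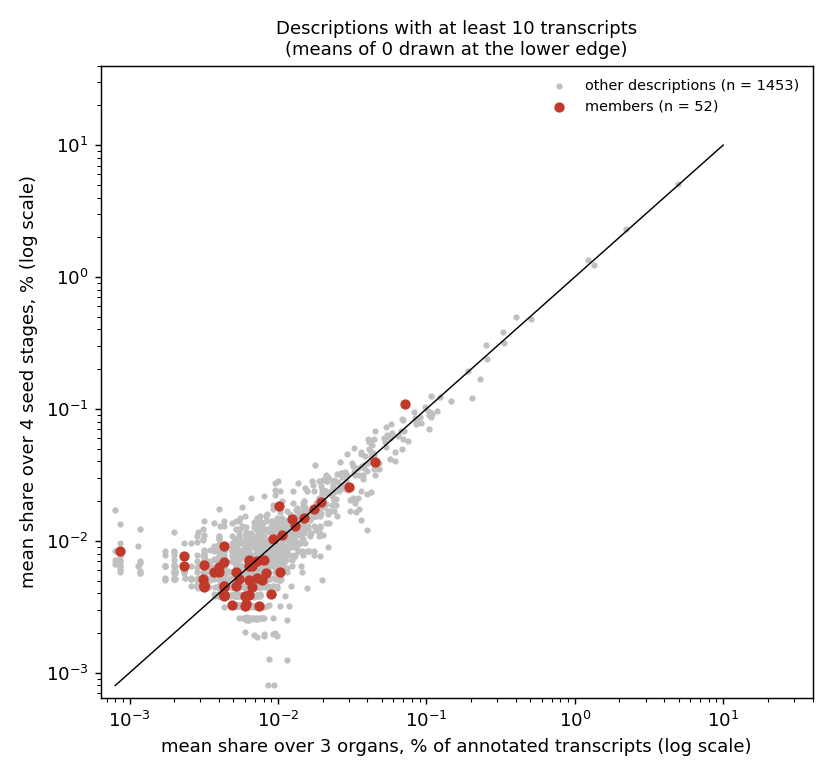
Each point is 1 description with at least 10 transcripts, plotted by its mean share over the 3 organs (x axis) and over the 4 seed stages (y axis), both in % of annotated transcripts on log scales, with the 52 member descriptions in red and the line of equal shares in black. Members lie on both sides of the line among the other descriptions, with 27 of 52 higher in the seed mean.

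Both called names were ubiquitin-conjugating enzymes. Ubiquitin-conjugating enzyme E2 22 had 2, 3, 3 and 2 transcripts over the seed stages, and 1, 0 and 1 in leaf, root and stem. Ubiquitin-conjugating enzyme E2 26 had 2, 2, 2 and 3 in the seeds and 3, 4 and 3 in the organs. Each had an exact permutation p of 0.0286 and an adjusted p of 0.397. No difference between a seed stage and an organ exceeded 3 transcripts. For E2 26, BBCH 09 had as many transcripts as leaf and stem (3). Its share was lower there (0.00733% against 0.0106% in leaf and 0.0103% in stem) only because BBCH 09 has more annotated transcripts. For E2 22 the sign of the difference turned among peptides of at least 200 amino acids, and for E2 26 seeds and organs overlapped when distinct proteins were counted.

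The ubiquitin-conjugating group was small as a whole, with 6, 7, 12 and 14 transcripts in the seed stages and 10, 8 and 8 in leaf, root and stem. BBCH 08, BBCH 09 and leaf had the higher shares (0.0314%, 0.0342% and 0.0352%) and BBCH 05 and 07 the lower (0.0165% and 0.0175%). E2 24, known in Arabidopsis as PHO2, which restrains phosphate uptake, was found in all 7 assemblies with 1 to 3 transcripts. E2 23 had 0, 0, 1 and 3 in the seeds and 2, 1 and 0 in the organs, with no order between them.

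E3 ligases were the most numerous members, with 643 transcripts and 52 descriptions. The seed stages held 114, 107, 99 and 94, and leaf, root and stem held 61, 88 and 80. Shares were 0.314%, 0.268%, 0.259% and 0.230% in the seeds, 0.215% in leaf, 0.227% in root and 0.274% in stem. Stem lay above 3 of the 4 seed stages, so the groups overlapped, and BBCH 09 was the lowest of the seeds. The description E3 ubiquitin ligase with no further name held 237 of these transcripts, matched to 54 proteins. It had 47, 45, 39 and 36 transcripts in the seeds and 14, 29 and 27 in the organs. With the single transcript of a variant spelling of that name in stem, its leaf share was 0.0493% (95% interval 0.0294% to 0.0827%). This lay below BBCH 05 (0.130%) and BBCH 07 (0.113%) without overlap of the Wilson intervals, the 2 such pairs of 21. Stem (0.0958%) lay above BBCH 09 (0.0880%).

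Of the 50 E3 descriptions with a further name, 22 occurred in all 7 assemblies and 9 in only 1. HECT ligases take ubiquitin on themselves before passing it on. The names UPL and HERC together had 23, 20, 15 and 17 transcripts in the seeds and 15, 19 and 15 in the organs. UPL names had 12, 11, 7 and 7 in the seeds and 7, 12 and 7 in the organs. HERC names had 11, 9, 8 and 10, and 8, 7 and 8. These were grouped by name only, and whether the proteins named HERC are HECT ligases was not tested. Among the HERC names, HERC1 had 7, 3, 5 and 5 in the seeds and 4, 3 and 5 in the organs. HERC2 had 3, 4, 1 and 3, and 2, 3 and 2. UPL1, a very large HECT ligase, had 6 transcripts in root against 1 or 2 in each of the other assemblies. All matched 1 protein, and the longest UPL1 peptide of any assembly had 3641 amino acids. In root no E3 peptide was longer than 1843 amino acids. Whether the 6 root transcripts are pieces of fewer genes was not tested. The share of UPL1 in root was 4.76 times that in the other 6 together (0.5 added to both counts), the largest such ratio of any member with at least 10 transcripts. UPL3, which in Arabidopsis limits the branching of leaf hairs, had 3 transcripts at BBCH 05, 2 at BBCH 07 and 1 elsewhere.

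The RING-type ligases with a name of their own also spread over seeds and organs. CHFR, a mitotic checkpoint ligase in animals, had 4, 2, 3 and 2 transcripts in the seeds and 2 in each organ. RING1, which in animals acts on histone H2A within polycomb complexes, had 2, 4, 2 and 2 in the seeds and 2 in each organ. These names were close to even. RNF14, a RING-between-RING ligase, was uneven within the seeds, with 4, 5, 0 and 4 transcripts, and had 0 in leaf, 1 in root and 0 in stem. Arkadia, known in animals from transforming growth factor signalling, had 2, 1, 2 and 1 in the seeds and 4, 1 and 3 in leaf, root and stem. SINA 4, of a family first described in the fly eye, had 1, 3, 0 and 1 in the seeds and 0, 3 and 3 in the organs. March8, a membrane-bound ligase in animals, had 3 transcripts in root and 1 or 2 in each other assembly. BIG BROTHER, which restricts organ size in Arabidopsis, had 3, 1, 1 and 2 in the seeds and 1, 2 and 2 in the organs, and the name BIG BROTHER-related had 2, 2, 1 and 1, and 2, 1 and 1. The E3 ligase BRE1-like 2 belongs to the histone H2B ligases that promote seed dormancy in Arabidopsis. It had 2, 1, 3 and 2 transcripts in the seeds and 1, 3 and 3 in the organs, so its transcripts were not more numerous in seeds.

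RING finger and RING-H2 names outside the E3 group were fewer. RING finger names had 16, 26, 15 and 12 transcripts in the seeds and 13, 11 and 9 in the organs. PHD and RING finger domain-containing 1 made up 10 of the 26 at BBCH 07, against 3 to 6 in the other assemblies. RING-H2 names, of the ATL family of membrane-anchored ligases, had 7, 7, 9 and 7 in the seeds and 3, 8 and 6 in the organs. ATL5P was the most frequent with 13, and 4 of them were at BBCH 08. Leaf held no transcript named ATL2, ATL4M, ATL68 or ATL3G, where each of the 4 names had 5 or 6 over all assemblies. With so few transcripts such an absence lies within the 3 that a count of 0 allows.

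U-box ligases had nearly the same number in every seed stage, with 28, 31, 31 and 31 transcripts, and 29, 25 and 22 in leaf, root and stem. Leaf had the highest share (0.102%) and root the lowest (0.0644%), and the 4 seed stages lay between 0.0758% and 0.0811%. U-box domain-containing 4 had 5, 8, 9 and 9 in the seeds and 8, 5 and 5 in the organs. U-box domain-containing 33 had 7, 9, 6 and 5 in the seeds, and in leaf it had 2 where root had 7 and stem 8. Number 7 had 4, 5, 3 and 4, and 3, 4 and 2, while numbers 35 and 72 had 1 to 3 in each assembly. The GO term protein phosphorylation stood on 63 of 197 U-box transcripts, 41 of them of number 33, 13 of number 35, 7 of number 34 and 2 of number 52. In plants a class of U-box proteins joins the U-box to a protein kinase domain. SPL11, a U-box ligase that restrains cell death in rice, had exactly 1 transcript in each of the 7 assemblies.

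F-box proteins had 42, 39, 51 and 48 transcripts in the seeds and 30, 33 and 27 in leaf, root and stem. The shares were 0.116%, 0.0977%, 0.133% and 0.117% in the seeds and 0.106%, 0.0850% and 0.0924% in the organs. Leaf lay above BBCH 07, which was the single overlap. When distinct proteins were counted, all seed stages (0.102% to 0.140%) lay above all organs (0.0792% to 0.0970%). With 1 transcript kept per assembled gene the groups likewise no longer overlapped, with 0.0975% at BBCH 07 and 0.0969% in leaf as the nearest values. Among peptides of at least 200 amino acids the seed and organ means were nearly equal (0.1018% against 0.0992%), with overlap.

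The members named F-box fell into several kinds, none of which separated seeds from organs. Tubby-like F-box proteins, which carry a lipid-binding tubby domain beside the F-box, had 15, 19, 17 and 18 transcripts in the seeds, and 21, 15 and 12 in leaf, root and stem. Leaf had their highest share, 0.0739% (95% interval 0.0484% to 0.113%). The other assemblies lay between 0.0387% and 0.0476%, below the lower end of that interval, though the Wilson intervals overlapped in all 21 pairs. F-box proteins with leucine-rich repeats, the kind that includes the plant receptors of auxin and jasmonate, had 13, 6, 18 and 13 in the seeds and 2, 9 and 7 in the organs. Their share in leaf, 0.00704%, and at BBCH 08, 0.0471%, had Wilson intervals that did not overlap, the single such pair of 21. Among the 21 families compared, only this one and E3 ubiquitin ligase without a further name had any such pair, always with leaf. F-box LRR-repeat 23 had 2, 2, 6 and 1 in the seeds and 2, 4 and 2 in the organs. The name F-box LRR-repeat without a number had 2, 2, 2 and 4, and 0, 2 and 2. F-box LRR-repeat 4 had 2, 1, 2 and 4 transcripts in the seeds and 0 in every organ, all matched to 1 protein. Its 9 transcripts were too few for the comparison by description, and the name is given here after its values were seen. F-box WD-40 repeat-containing had 4, 3, 1 and 2 in the seeds and 1 in each organ.

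Most names on a list of 25 well-known receptors and ligases, many of them of hormone and light signalling, were not found. Of 25 names searched, among them transport inhibitor response, coronatine, EIN3-binding, adagio and COP1, 4 occurred in at least 1 of the 7 single assemblies. SPL11 was found everywhere, and CHIP, a chaperone-linked U-box ligase, had 1 transcript at BBCH 09 and 1 in stem. Constitutive photomorphogen had 1 at BBCH 05. The fourth, SLY1, was met only in the name of a Sec1 family transport protein, which is no F-box protein. The 25 names did not include some that were found, such as UPL, SINA, BRE1 and BIG BROTHER above, and EID1-like F-box 2. EID1-like F-box 2 had 2, 1, 1 and 1 transcripts in the seeds and 1 in each organ. Since most homologues had no informative name, a name that is missing here says nothing about the gene.

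**Figure D3:**
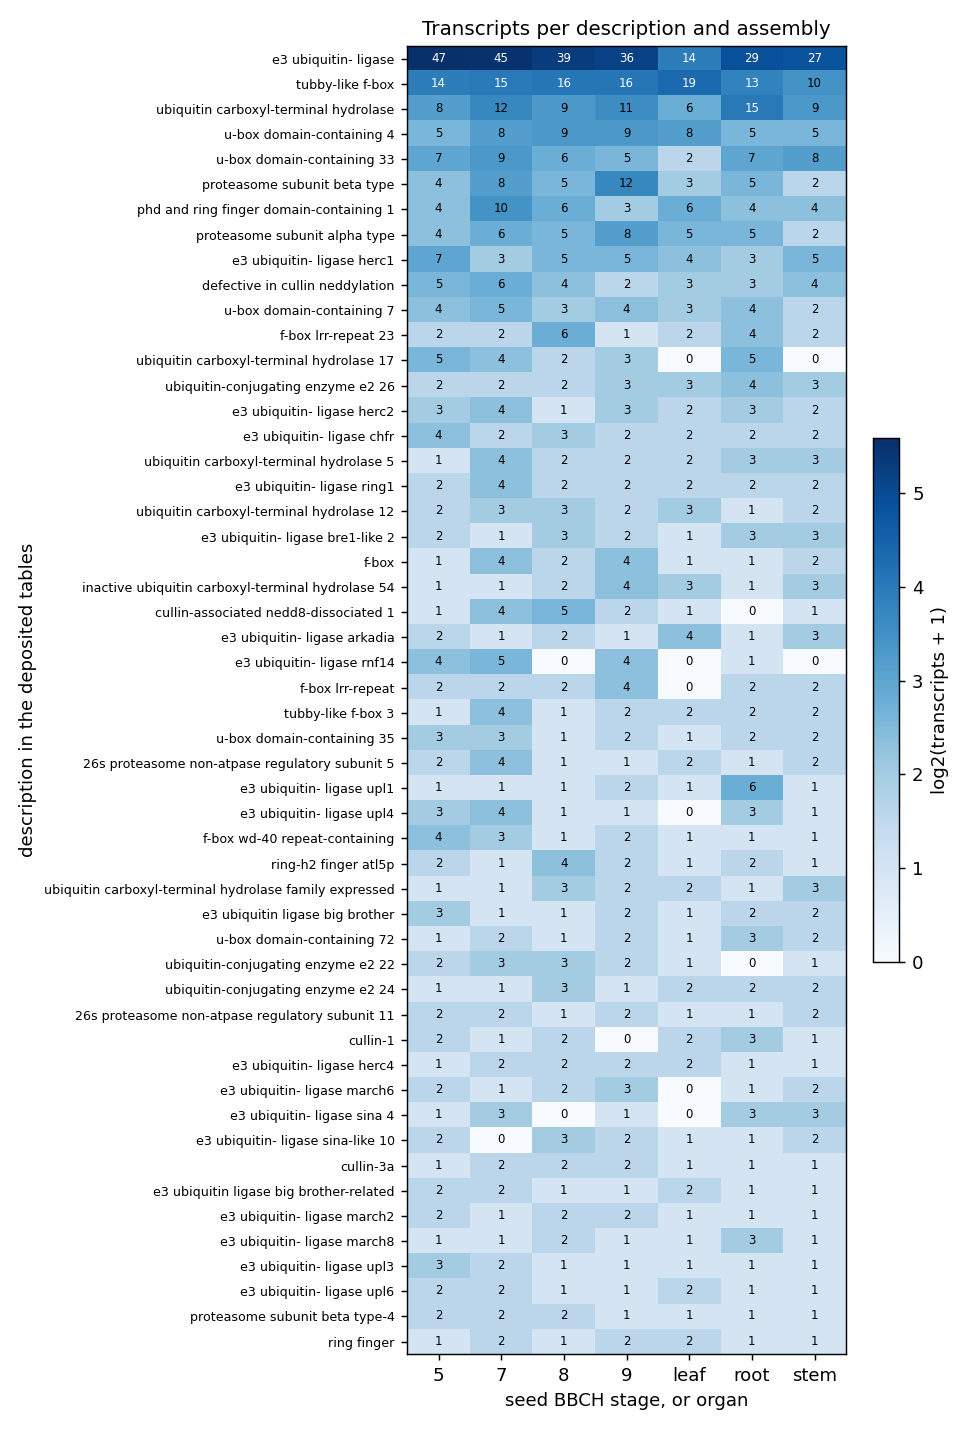
The number of transcripts (printed in each cell, with colour on a log2 scale of the number plus 1) is shown for the 52 member descriptions with at least 10 transcripts (y axis) in the seed assemblies at BBCH 5, 7, 8 and 9 and in leaf, root and stem (x axis). E3 ubiquitin ligase without a further name ranges from 14 in leaf to 47 at BBCH 05, and most other names have 1 to 5 transcripts in each assembly.

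Cullins and the proteins that control them had 9, 13, 13 and 6 transcripts in the seeds and 7 in each organ. By share BBCH 09 was the lowest of all 7 (0.0147%) and BBCH 08 the highest (0.0340%). Cullin-1, the scaffold of F-box ligases, had 2, 1, 2 and 0 in the seeds and 2, 3 and 1 in the organs. Cullin-3a, the scaffold of ligases with BTB proteins, had 1, 2, 2 and 2 in the seeds and 1 in each organ. No assembly held more than 3 transcripts of either, and cullin-1 was not met at BBCH 09. Defective in cullin neddylation, a family that helps to attach the cullin-activating modifier NEDD8, had 5, 6, 4 and 2, and 3, 3 and 4. CAND1, which exchanges the target-binding parts of cullin ligases, had 1, 4, 5 and 2 in the seeds and 1, 0 and 1 in the organs, and 1 of the 2 at BBCH 09 had a green-algal homologue.

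Ubiquitin carboxyl-terminal hydrolases took nearly the same share of all 3 organs, 0.0915% in leaf, 0.0928% in root and 0.0924% in stem, inside the range of the seeds (0.0827% to 0.0977%). They had 30, 39, 34 and 34 transcripts in the seeds and 26, 36 and 27 in the organs. Hydrolase 17 had 5, 4, 2 and 3 in the seeds and 5 in root, but 0 in leaf and stem. Hydrolase 5 had 1, 4, 2 and 2, and 2, 3 and 3. Hydrolase 12, a regulator of flowering and of the circadian clock in Arabidopsis, had 2, 3, 3 and 2, and 3, 1 and 2. The inactive hydrolase 54 had 1, 1, 2 and 4, and 3, 1 and 3. Apart from hydrolase 17 these names were found in every assembly.

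Proteasome transcripts numbered 23, 32, 23 and 34 in the seeds and 15, 24 and 14 in leaf, root and stem. Their shares were 0.0634%, 0.0801%, 0.0602% and 0.0831% in the seeds, 0.0528% in leaf, 0.0618% in root and 0.0479% in stem. Root lay just above BBCH 08, so the groups overlapped. This was also the group in which green algae mattered. At BBCH 09, 9 of 34 proteasome transcripts (26.5%, 95% Wilson interval 14.6% to 43.1%) matched a green-algal protein best, and in root 2 of 24 did (8.33%, 2.32% to 25.8%). The other 5 single assemblies had 0 of 14 to 32, which allows up to 9.38% at BBCH 07 and up to 21.4% in stem. The combined assembly had 12 of 48 (25%).

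**Figure D4:**
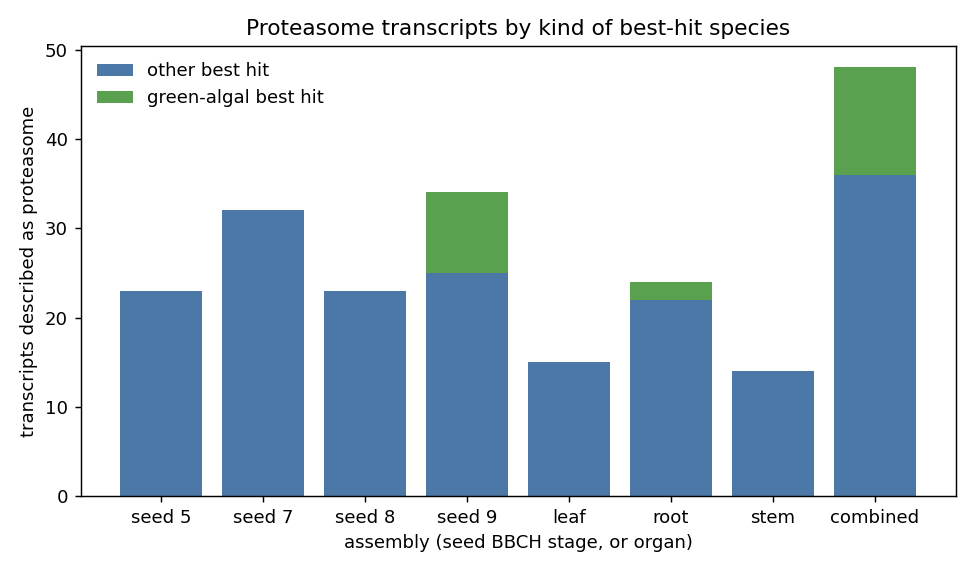
Bars give the number of transcripts described as proteasome (y axis) in each assembly (x axis), split into those with a green-algal best homologue (green) and the others (blue). Green-algal homologues stand in 9 of 34 at BBCH 09, 2 of 24 in root and 12 of 48 in the combined assembly, and in none of the other assemblies.

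Among the members, green-algal homologues were met only under proteasome names, with the exception of CAND1. BBCH 09 had 10 such members (3.60%), 6 named proteasome subunit beta type, 2 proteasome subunit alpha type, 1 26S proteasome regulatory subunit 4 and 1 CAND1. Root had 20S proteasome subunit alpha 2 and 26S proteasome non-ATPase regulatory subunit 10. In the entries that name a genus, the homologues at BBCH 09 came from Tetraselmis, Coccomyxa, Micromonas and Ostreococcus. Their mean similarity was lower, with a median of 76% against 96% for the other proteasome transcripts at BBCH 09. The median length of these peptides was 129 amino acids, against 154.5 over all proteasome transcripts at BBCH 09. All 10 homologous proteins found at BBCH 09 were found again in the combined assembly. None of the 1543 members outside the proteasome and cullin groups had a green-algal homologue in a single assembly, which allows a share of up to 0.194%. Over all annotated transcripts the share was 1.31% at BBCH 09, 1.08% in root and 0.141% to 0.339% in the other single assemblies.

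Without green-algal homologues the proteasome numbers fell to 25 at BBCH 09 and 22 in root. The shares were then 0.0636%, 0.0803%, 0.0604% and 0.0619% in the seeds and 0.0529%, 0.0573% and 0.0480% in the organs, so every seed stage lay above every organ. The difference of the means went from 0.0175 to 0.0138 percentage points, while the exact permutation p went from 0.143 to 0.0571. The order was lost when distinct proteins without green algae were counted (difference 0.00962 percentage points). With peptides of at least 200 amino acids the organ mean was the higher (0.0622% against 0.0555%). In the other groups leaving out the algal homologues changed no call.

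Within the proteasome the beta subunits of the 20S core, whose rings hold the proteolytic sites, gave this order with and without green algae. They had 7, 10, 9 and 14 transcripts in the seeds and 4, 7 and 3 in the organs, and 8 at BBCH 09 without algal homologues. Their shares were 0.0193% to 0.0342% in the seeds (0.0194% to 0.0251% without green algae), and 0.0103% to 0.0180% in the organs (0.0103% to 0.0182%). The order was lost when distinct proteins were counted, and the sign of the difference turned among peptides of at least 200 amino acids. Families were grouped after their names were seen. Of 21 families, some nested in others, 1 lay higher in every seed stage and 1 higher in every organ. Of all 1505 descriptions, 7.31% lay higher in every seed stage and 5.58% in every organ. The family higher in every organ was RGLG, a family of RING ligases, with 1, 1, 1 and 2 transcripts in the seeds and 2 in each organ. Alpha subunits, which form the outer rings and the gate, had 9, 8, 9 and 11, and 6, 9 and 4, with overlap. Of the core subunits with a number, beta type-4 was found in every assembly with 1 or 2 transcripts under that name. Proteasome subunit alpha type-3 had 2, 1, 2 and 2 in the seeds and 0 in each organ. Over all names, 4 of 7 alpha and 2 of 7 beta numbers were met in at least 1 of the 7 single assemblies, and most core transcripts bore no number.

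The GO term proteasome core complex, set by the authors' annotation on 127 transcripts of which 55 were members, gave 21, 20, 20 and 25 in the seeds and 12, 19 and 10 in the organs. Its shares were 0.0501% to 0.0611% in the seeds and 0.0342% to 0.0490% in the organs, and the order held without green algae. It was lost with 1 transcript per assembled gene and with distinct proteins, where the difference of the means fell from 0.0135 to 0.0104 and 0.00347 percentage points. The term shares 48 transcripts with the beta subunits and is not separate evidence. Among peptides of at least 200 amino acids the order was turned, with 0.0236% to 0.0365% in the seeds and 0.0475% to 0.0563% in the organs.

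The 19S cap showed no such order. Its non-ATPase subunits had 6, 12, 4 and 7 transcripts in the seeds and 4, 7 and 5 in the organs. Subunit 5, an assembly chaperone of the cap in mammals, had 2, 4, 1 and 1 in the seeds and 2, 1 and 2 in the organs. Subunit 11 had 2, 2, 1 and 2, and 1, 1 and 2, and subunit 8 had 3 at BBCH 07 and 1 in each other assembly. Non-ATPase numbers 5, 8 and 11 were thus present in all 7 assemblies, and 8 of the 15 searched were met in any. Of the cap ATPases, mostly described as 26S protease regulatory and so outside the rule, subunit 6a had 2, 2, 2 and 4, and 2 in each organ.

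Peptide length differed between seeds and organs among the members. Member peptides had medians of 201.5, 178, 186 and 192 amino acids in the seeds and 244, 223.5 and 255 in leaf, root and stem. The seeds and organs did not overlap, whereas over all annotated transcripts they did (200, 175, 183 and 188 against 194, 201 and 232). At least 200 amino acids were reached by 43.1% to 50.4% of seed members and 55.4% to 65.5% of organ members. For proteasome transcripts these shares were 25% to 43.5% in the seeds and 54.2% to 66.7% in the organs. Over all annotated transcripts the share was 48.5% in leaf, 50.4% in root and 57.6% in stem. It was 42.4%, 45.5% and 46.9% at BBCH 07, 08 and 09. BBCH 05 lay between leaf and root, so seeds and organs overlapped. Seed members were close to all annotated transcripts of their assembly, while members in each organ lay above them. The part of peptide length in the proteasome order was measured only by the restriction to long peptides given above. Sample storage also differed between seeds and organs, and its part in peptide length was not tested.

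**Figure D5:**
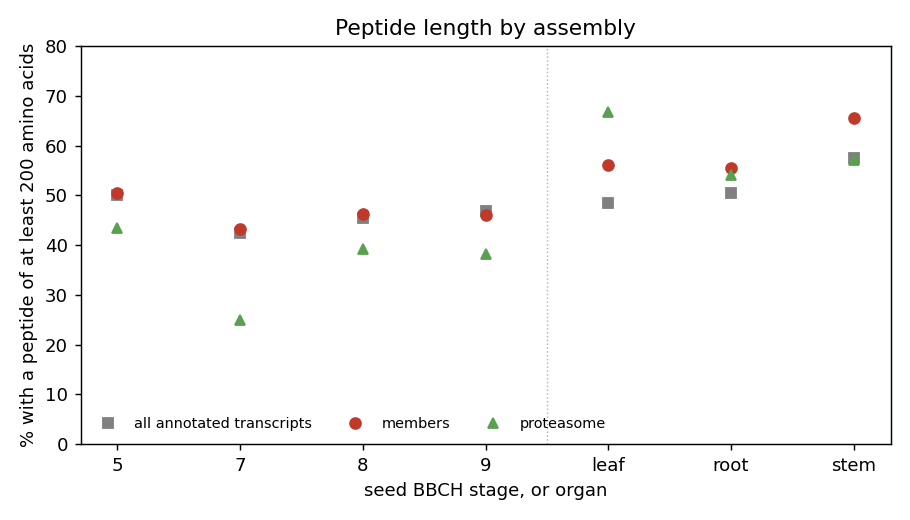
The percentage of transcripts with a peptide of at least 200 amino acids (y axis) is plotted for all annotated transcripts (grey squares), members (red circles) and proteasome transcripts (green triangles) in each single assembly (x axis, seed BBCH stage or organ). Members stand at 43.1% to 50.4% in seeds and 55.4% to 65.5% in organs, and proteasome transcripts at 25% to 43.5% and 54.2% to 66.7%. All annotated transcripts run from 42.4% at BBCH 07 to 57.6% in stem, and their seeds and organs overlap.

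Members differed in how close they were to their homologues. Mean similarity had a median of 96% for proteasome and 95% for cullin transcripts, 91% for RING-H2, ubiquitin-conjugating and hydrolase names, 88% for U-box, 86% for F-box, 84% for E3 ligases and 82% for RING finger names. All annotated transcripts had a median of 86%, so F-box, E3 ligase and RING finger names stood at or below it and the other groups above it. The species of the homologue also differed from that of other transcripts. Aegilops tauschii gave 34.97% and Triticum urartu 36.2% of the members, against 14.5% and 12.1% of all annotated transcripts. Homologues from Brachypodium distachyon, bread wheat and barley were without an informative name in 93.1%, 92.0% and 82.1% of cases. For Aegilops tauschii this was 44.9% and for Triticum urartu 51.2%. Rice had 37.5% without an informative name, yet gave 2.26% of the members against 3.03% of all annotated transcripts. The cause of the difference between species was not tested.

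The members matched 361 distinct proteins over the 7 assemblies. Of these, 80 were found in all 7 (22.2%, against 15.8% of all proteins), 128 in seeds only (35.5%, against 30.7% of all proteins) and 29 in organs only (8.03%, against 16.8%). The seeds have the larger number of assemblies. Leaf and stem are smaller than every seed assembly (28412 and 29223 annotated transcripts). Root (38809) is larger than BBCH 05 (36287) and BBCH 08 (38229). In all 4 seed stages and no organ there were 8 proteins (2.22%, against 1.34% of all proteins), and in all 3 organs and no seed stage there were 0, where all proteins had 322 of 57115 (0.564%). The 8 were 3 E3 ubiquitin ligases without a further name, PUB22, F-box LRR-repeat 4, proteasome subunit alpha type-3, a RING finger U-box domain family protein and 1 of the proteins named U-box domain-containing 33. PUB22 is a U-box ligase that dampens immune responses in Arabidopsis.

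GO terms reached further than the words, but they are given as deposited and their accuracy was not tested. Regulation of bone mineralization, which no grass can have, stood on 527 of 1770 members (29.8%) and on 28407 annotated transcripts of the single assemblies. Protein ubiquitination stood on 1759 transcripts, of which 25.3% were members and 64.6% had no informative name. It had 272, 313, 259 and 256 in the seeds and 197, 247 and 215 in the organs, and by share the groups overlapped. The term stood on 72.1% of U-box and 42.5% of E3 ligase transcripts, but on no F-box, RING finger or ubiquitin-conjugating transcript. Protein deubiquitination stood on 73.0% of the hydrolases. The enzyme code 3.4.19.12 (ubiquitinyl hydrolase) stood on 108 of 226 hydrolases and 3.4.25 (threonine endopeptidases) on 101 of 165 proteasome transcripts. Seed dormancy process stood on 32 members, 15 of BRE1-like 2, 9 of hydrolase 26 and 8 of CAND1. Counted over all its 335 transcripts the term had 47, 58, 54 and 47 in the seeds and 38, 49 and 42 in the organs, and the shares overlapped.

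Partners of the pathway outside the 9 words were searched by 18 names, and 16 were found. Polyubiquitin had 9, 8, 8 and 8 transcripts in the seeds and 8, 9 and 5 in the organs. The E1 enzyme had 0, 4, 3 and 3, and 3, 2 and 2, and SKP1, the link between cullin-1 and F-box proteins, had 6, 4, 4 and 6, and 3, 4 and 3. These overlapped by share. BTB proteins, the target-binding parts of cullin-3 ligases, had 28, 30, 23 and 22 in the seeds and 10, 16 and 14 in the organs, and every seed stage lay above every organ by share. The same held for names with SUMO, a ubiquitin-like modifier, with 6, 10, 7 and 6 against 3, 5 and 3. Ubiquitin fused to a ribosomal protein had 0 in each seed stage and 1 in each organ, and 1 of these 3 had a green-algal homologue. Names of the anaphase-promoting complex, a ligase of the cell cycle, had 7, 10, 3 and 8 in the seeds and 3, 1 and 2 in the organs, with overlap. Of the 16 partners found, 2 thus lay higher in every seed stage and 1 in every organ. Among all 1505 descriptions with at least 10 transcripts, 7.31% and 5.58% did so. No test was made on these partners.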

How the data were processed

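Read clipping by the authors was done with Trimmomatic (version not given in the sources used here). After k-mer normalization they ran Trinity on each of the 7 libraries and on all reads together. Of each gene the longest isoform was retained, near-identical contigs were collapsed, and peptides from the longest reading frame were compared by blastp with plant entries of UniProtKB. Descriptions, GO terms and enzyme codes came from Blast2GO. The deposited e-value is a score of that search. The deposited similarity is a percent, averaged over the hits of a transcript. Lengths are in amino acids, as deposited. Columns of per-sample values without a sample numbered 0.

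Members, families and name lists were chosen with earlier results of these data known. Shares are transcripts per annotated transcript (e-value at most 0.1), with 95% Wilson intervals of counting error. Seed stages and organs were called different where their shares did not overlap, beside an exact permutation test over 35 splits, adjusted by the Benjamini-Hochberg method over 1505 descriptions with at least 10 transcripts and 10 groups. The 7 assemblies are conditions, not replicates, and the combined assembly entered no test. The procedure was tested on simulated data.

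Named were the 5 most frequent descriptions per group, those called, the 2 with the largest ratio to the other assemblies (0.5 added) per assembly, numbered proteasome subunits, listed receptors and partners. Green algae were told by species codes. Alternatives were stricter e-values (1e-05, 1e-10), a single transcript (1) for each Trinity gene, distinct proteins, all translated transcripts as denominator, no green algae, peptides of at least 200 amino acids, at least 20 transcripts per description and each assembly left out. The denominator of informatively named transcripts, distinct proteins without green algae, the families and the same alternatives for E2 22, E2 26, the beta subunits and the core complex term were added after seeing the data. No sequences, coordinates or reads were used here. Scripts ran in Python 3.11.15 with pandas 2.3.3, NumPy 2.4.6 and SciPy 1.17.1, and figures were drawn with matplotlib 3.10.9.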

Additional observations from a re-analysis of the deposited data

Results flagged for a closer look

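Within the 4 seed stages 12 measures were looked at for 1 stage far from the others, and 3 stood out. The members' share of annotated transcripts was 0.680% at BBCH 09, where the nearest other stage had 0.746%, a gap of 0.873 of the whole range of the seeds. Chance alone marks about 1 in 20 sets of 4 values in this way. The green-algal share of all members at BBCH 09 was 3.60%, where the other stages had 0. The green-algal share of proteasome transcripts at BBCH 09 was 26.5%, where the other stages again had 0. With the other stages at 0 any value at BBCH 09 would have stood out, so that rate does not hold for these 2 measures, which rest on mostly the same transcripts.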

How the results depend on the processing

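All values are seed mean minus organ mean in percentage points of annotated transcripts, unless another denominator is named. For all members (0.0704 as reported) every seed stage lay above every organ with 1 transcript per Trinity gene (0.0783), with distinct proteins (0.103) and with distinct proteins without green algae (0.0985), and for F-box names (0.0217) with the same settings (0.0227, 0.0278 and 0.0282). The proteasome group (0.0175) did so over all translated transcripts (0.0155), without green algae (0.0138) and over informatively named transcripts (0.0679). With peptides of at least 200 amino acids the sign turned for all members (-0.0123), RING finger (-5.40e-05), hydrolases (0.00237), proteasome (-0.00669), cullins (-0.00536), E2 22 (-0.00309), beta subunits (-0.00115) and the core complex term (-0.0224). With distinct proteins, and with these less green algae, it turned for U-box (0.00144 and 0.00156), ubiquitin-conjugating (0.00152 and 0.00162), hydrolases (0.00470 and 0.00482) and cullins (-0.000715 and -0.00154), and with 1 transcript per Trinity gene for ubiquitin-conjugating (0.00124). Seeds and organs overlapped again with distinct proteins for E2 26 (-0.00108), beta subunits (0.00842) and the core complex term (0.00347), and with 1 transcript per Trinity gene for that term (0.0104). Descriptions that did not overlap numbered 194, and 89 with at least 20 transcripts, where fewer descriptions are tested (570). Leaving out each assembly in turn gave 0.0487 to 0.0879 for all members, 0.0159 to 0.0278 for F-box, 0.0138 to 0.0470 for E3 ubiquitin, 0.00259 to 0.0149 for RING finger, -0.00120 to 0.00382 for RING-H2, -0.0108 to 0.00807 for U-box, -0.00637 to 0.000926 for ubiquitin-conjugating, -0.00731 to -0.00231 for hydrolases, 0.0137 to 0.0214 for proteasome and 0.00180 to 0.00825 for cullins. Seeds and organs no longer overlapped for all members without BBCH 09 (0.0879), F-box without BBCH 07 (0.0278) or leaf (0.0273), E3 ubiquitin without stem (0.0470), hydrolases without BBCH 07 (-0.00731, organs higher), proteasome without BBCH 08 or root (both 0.0214), cullins without BBCH 09 (0.00825) and U-box without leaf (0.00807, sign turned). The sign also turned without leaf for RING-H2 (-0.00120) and ubiquitin-conjugating (0.000926). Beyond the restriction to fewer transcripts, the cause of these changes was not tested. No paired analysis was possible because each condition has 1 library. With 3 to 114 transcripts per group and assembly, counting error limits every share.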
